A study of Homo sapiens with 6 samples.

Results

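The genes described here are 50 that encode calcium channels, calcium pumps, phospholipases C, inositol 1,4,5-trisphosphate (IP3) kinases, calmodulins, calmodulin-dependent kinases, calcineurin subunits and NFAT transcription factors. They were chosen by name and function from the 26902 genes of the deposited expression table, and all 50 were found there. RNA had been sequenced from HMCB, a human melanoma cell line with the NRAS Q61K genotype, 3 days after transfection with a control siRNA (siNC, 3 libraries) or an siRNA against AHCYL1 (siAHCYL1, 3 libraries). Both groups share the cell line and the mutation, so the comparison says nothing of cells without mutant NRAS. The study set out to learn how AHCYL1 promotes the growth of NRAS-mutant melanoma cells, and its title names ER calcium homeostasis.

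IP3 is made at the plasma membrane when phospholipase C splits the lipid PIP2. It opens IP3 receptors, which let calcium out of the endoplasmic reticulum (ER), and SERCA pumps return the calcium to the ER. When the ER store empties, STIM proteins in the ER membrane open ORAI channels at the cell surface. Calcium in the cytosol binds calmodulin, which activates CaM kinases and the phosphatase calcineurin, and calcineurin sends NFAT factors to the nucleus. AHCYL1, also named IRBIT, binds IP3 receptors at the site used by IP3.

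Values are TPM, a level per transcript length in which every library adds up to the same total, so that sequencing depth is not known from the table. The number of genes at 1 TPM or more ran from 13035 to 13189 per library. AHCYL1 was at 150.02, 134.05 and 131.09 TPM in the siNC libraries and at 13.45, 11.13 and 10.97 TPM in the siAHCYL1 libraries. Of 10 melanocytic markers 6 were at 1 TPM or more in every library, with SOX10, S100A1, S100B, MIA, MITF and TYRP1 among those detected, while TYR was at 0 in all 6. MLANA averaged 0.20 TPM in siNC and 0.53 in siAHCYL1, PMEL averaged 0.88 and 1.83 TPM, and DCT averaged 11.41 and 0.34 TPM. The melanocytic markers summed to 1245.38 to 1309.94 TPM in siNC and 1395.88 to 1425.75 in siAHCYL1. Most of this was SOX10 (means of 1037.16 and 1009.34), while MITF averaged 10.99 and 9.72 TPM and TYRP1 1.59 and 3.76. Markers of other cell types were low in sum: epithelial markers ranged from 17.35 to 21.6 TPM in siNC and from 17.45 to 17.79 in siAHCYL1. Fibroblast markers, most of it LUM, ranged from 15.28 to 17.93 TPM in siNC and from 26.06 to 32.42 in siAHCYL1, with PDGFRA and FAP at 0 throughout. Immune and blood markers ranged from 14.5 to 28.5 TPM in siNC and from 11.38 to 17.71 in siAHCYL1, endothelial ones from 8.81 to 11.15 and from 6.26 to 7.19, and muscle ones from 0.02 to 0.25 and from 0.65 to 1.35. CD3E and HBB were at 0 in every library, as were KRT5, CDH1, VWF, MYH7 and CKM. Most of the other sums came from KRT18 (means of 17.54 TPM in siNC and 14.31 in siAHCYL1), KDR (9.60 and 6.74) and, moving in opposite directions, HBA1 (18.04 and 6.35) and PTPRC (3.45 and 8.55). The part of any other cell type in the results was not tested, and in bulk RNA fewer cells of a type and less RNA per cell cannot be told apart.

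Of the 50 genes, 44 passed the filter of at least 1 TPM in at least 3 libraries and were tested with limma on log2(TPM + 1), with p-values adjusted over all 13266 genes that passed. After the AHCYL1 siRNA 8 rose, 8 fell and 28 did not pass at an adjusted p under 0.05. Over all genes tested 51.6% changed, beside 36.4% of the calcium and IP3 genes. The share that rose was 18.2% against a background of 30.4%, and the share that fell was 18.2% against 21.2%. Changes of at least 2-fold were seen in 2 of the 44 genes, ITPR1 and ORAI3 (background 8.36% of genes). ORAI3 was near this limit: its log2 fold change ran from 0.90 without siNC replicate 1 to 1.23 without siNC replicate 2. With median-of-ratios scaling it was 0.99. The median log2 fold change was -0.04, beside 0.06 over all genes, and the median size without regard to sign was 0.20, beside 0.31. The values of the 2 groups did not overlap in 22 of the 44 genes (background 59.2%), and these included all 16 that changed. The balance of rises and falls depended on scaling: with median-of-ratios scaling, and likewise with quantile normalization, 8 rose and 15 fell. Over all genes those scalings brought the rises from 58.9% of calls to 50.2% and 48.1%. The share of the calcium and IP3 genes that changed was then 52.3% under either scaling, near the backgrounds of 54.2% and 54.4%. Leaving out siAHCYL1 replicate 1 gave 50.0% beside 51.3%. Other settings left a wider gap: 27.3% beside 42.9% without siNC replicate 2, and 29.5% beside 42.8% without siAHCYL1 replicate 2. The share was 29.5% beside 46.4% without siNC replicate 3, and 52.3% beside 59.7% with the replicate numbers as a block in the fit. Without siAHCYL1 replicate 1 there were 8 rises and 14 falls, without siNC replicate 2 there were 7 and 5, and without siAHCYL1 replicate 2 there were 8 and 5.

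**Figure D1:**
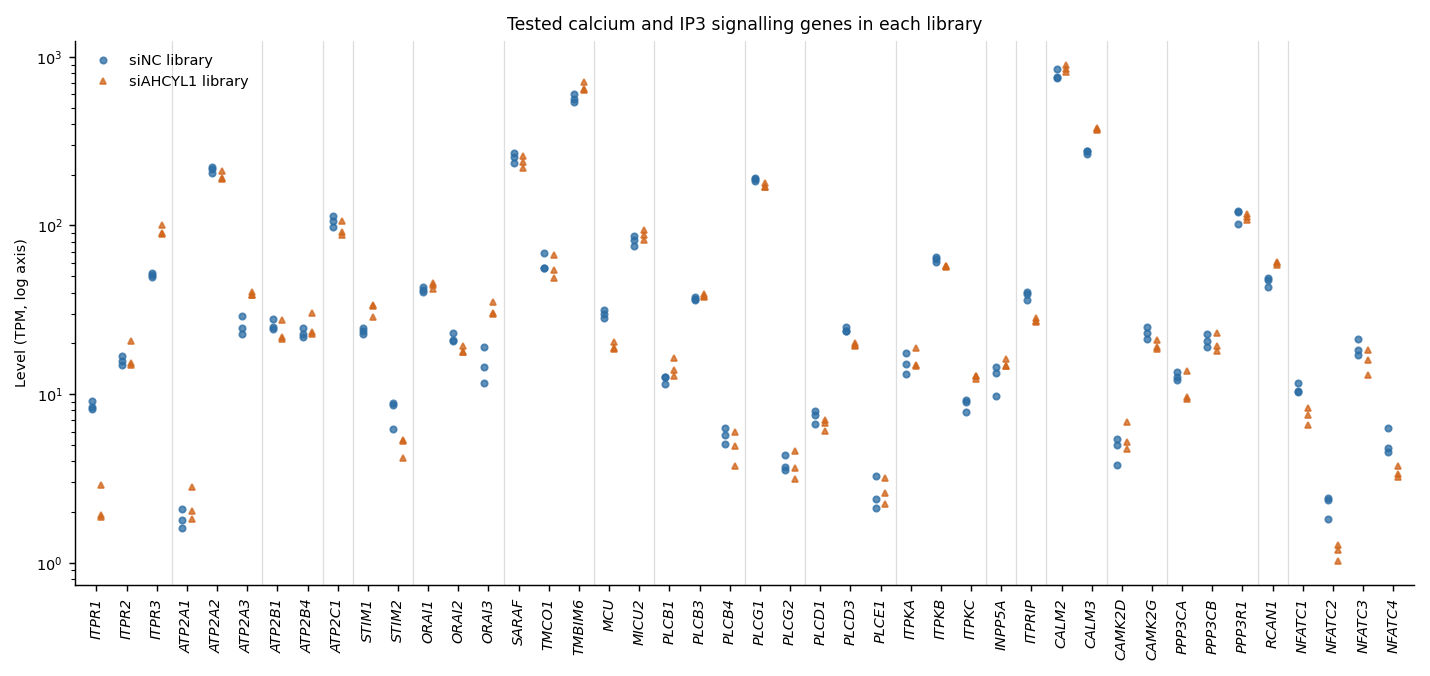
Level in TPM (log axis) of each of the 44 tested genes in the 3 siNC libraries (circles) and the 3 siAHCYL1 libraries (triangles), with grey lines between gene groups. Levels ran from about 1 TPM for NFATC2 to above 500 for CALM2 and TMBIM6, and the groups separated for ITPR1, ITPR3, ORAI3 and MCU but lay on each other for PPP3CB and PLCG2.

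Of the IP3 receptor genes ITPR1 fell, ITPR3 rose and ITPR2 did not pass. ITPR1 (chr3:4493345-4847840, GRCh38, plus strand) encodes the type 1 receptor, the form best known from neurons. It was at 8.37, 9.06 and 8.13 TPM in the siNC libraries and at 2.91, 1.88 and 1.91 TPM in the siAHCYL1 libraries. Every siAHCYL1 library lay below every siNC library, and the siAHCYL1 mean was 26.2% of the control mean (log2 fold change -1.57, SE 0.155, limma adjusted p = 4.17e-05). This was the 132nd largest fall among the 13266 genes and the largest among the calcium genes.

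ITPR3 (chr6:33620365-33696574, plus strand) encodes the type 3 receptor, the form common in epithelial cells. It was at 51.97, 50.75 and 49.58 TPM in siNC and at 100.41, 89.97 and 88.86 TPM in siAHCYL1. All 3 siAHCYL1 libraries were well above the controls (log2 fold change 0.86, SE 0.0717, limma adjusted p = 1.62e-05). Its exons overlap those of UQCC2 on the other strand, and these libraries do not keep strand. UQCC2 averaged 23.73 TPM in siNC and 30.04 in siAHCYL1 (log2 fold change 0.35, adjusted p = 0.104).

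ITPR2 (chr12:26336515-26833198, minus strand), the type 2 receptor, was at 15.67, 16.83 and 14.79 TPM in siNC and at 20.67, 14.84 and 15.38 in siAHCYL1. The groups overlapped, replicate 1 of siAHCYL1 stood above the other 5 libraries, and the gene did not pass (log2 fold change 0.09, adjusted p = 0.605). Without that library, and with quantile normalization, the sign turned (-0.06 and -0.01, neither past the threshold).

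The 3 receptor genes added up to 76.01, 76.64 and 72.5 TPM in siNC and to 123.99, 106.69 and 106.15 TPM in siAHCYL1. The sums did not overlap, with an exact two-sided permutation p of 0.1, the smallest that 3 against 3 allows, or 0.2 adjusted over 14 families. ITPR3 made up 67.7% ± 1.25 (SD, n = 3) of the receptor transcripts in siNC and 83.0% ± 1.78 in siAHCYL1. The share of ITPR1 went from 11.3% ± 0.421 to 1.97% ± 0.327, and that of ITPR2 from 21.0% ± 0.845 to 15.0% ± 1.46. ITPR3 was thus the most abundant receptor transcript in both groups, followed by ITPR2 and then ITPR1, and these 3 levels did not overlap in any library.

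The ryanodine receptors, the calcium release channels of muscle and neurons, were close to absent. RYR1 was at 0 in all 6 libraries. RYR2, the cardiac form, was at 0.04, 0.11 and 0.07 TPM in siNC and at 0.29, 0.23 and 0.22 TPM in siAHCYL1, and RYR3 was at 0.1 TPM or less throughout. None of the 3 passed the filter.

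**Figure D2:**
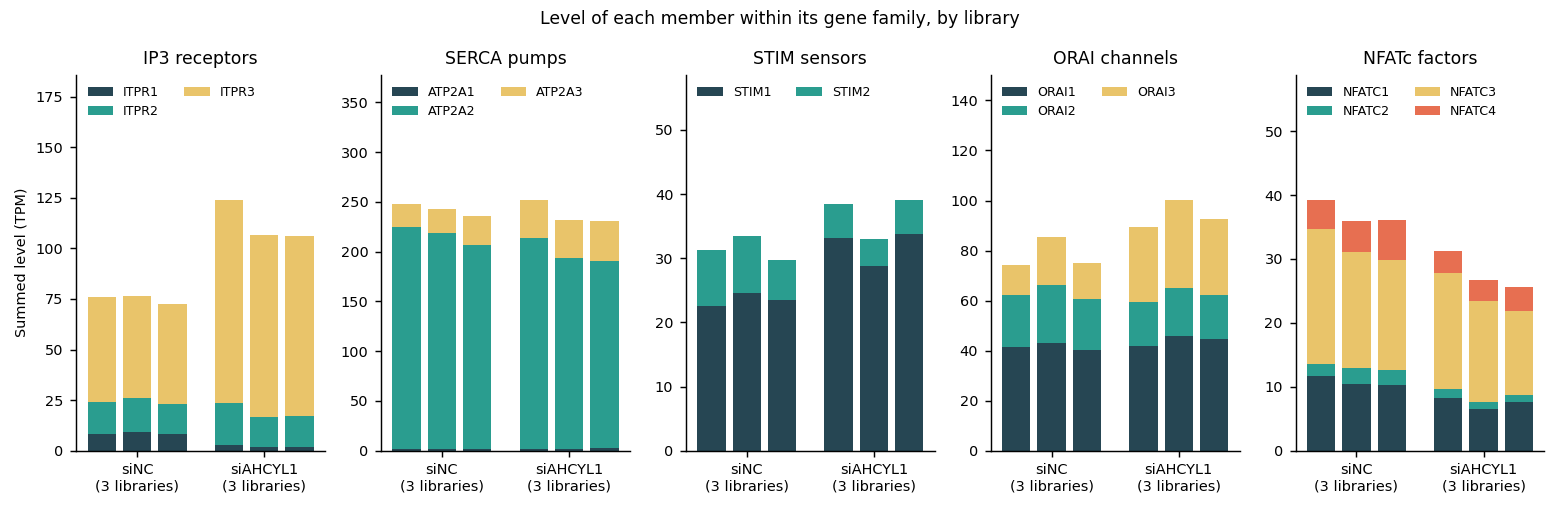
Summed level in TPM of 5 gene families in each library, 3 bars for siNC and 3 for siAHCYL1, with 1 colour per gene. In the IP3 receptor panel the ITPR3 part grows and the ITPR1 part shrinks in the siAHCYL1 bars, the ORAI3 part grows in the ORAI panel, and the NFATc bars are lower.

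Among the pumps that fill the ER, ATP2A3 rose, while ATP2A2, the main one, did not pass. ATP2A2, which encodes the widely expressed pump SERCA2, was at 223.59, 216.31 and 204.88 TPM in siNC and at 211.38, 192.05 and 187.56 TPM in siAHCYL1. The groups overlapped through replicate 1 of siAHCYL1 (log2 fold change -0.13, SE 0.0674, adjusted p = 0.146). Without that library it passed (-0.18, adjusted p = 0.0417), as it did with median-of-ratios scaling (-0.19, adjusted p = 0.011).

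ATP2A3 (chr17:3923870-3964464, minus strand), which encodes SERCA3, a pump with a lower affinity for calcium, was at 22.73, 24.63 and 29.06 TPM in siNC and at 38.62, 38.48 and 40.35 TPM in siAHCYL1. No values overlapped (log2 fold change 0.61, SE 0.0979, limma adjusted p = 0.000772). Its share of SERCA transcripts went from 10.5% ± 1.62 to 16.5% ± 1.09. ATP2A1, the pump of fast skeletal muscle, averaged 1.83 TPM in siNC and 2.22 TPM in siAHCYL1 without passing (adjusted p = 0.42). Its exons overlap those of ATP2A1-AS1 and RABEP2 on the other strand. RABEP2 rose from 18.92 to 39.19 TPM (log2 fold change 1.01, limma adjusted p = 3.34e-05), so the low value of ATP2A1 is uncertain. The sum of the 3 pump genes was 242 ± 6.14 TPM in siNC and 238 ± 11.9 TPM in siAHCYL1 (exact permutation p = 0.7).

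The pumps of other membranes did not pass. ATP2B1 and ATP2B4, calcium pumps of the plasma membrane, averaged 25.7 ± 1.85 and 23.1 ± 1.36 TPM in siNC, and 23.5 ± 3.47 and 25.5 ± 4.15 TPM in siAHCYL1 (adjusted p = 0.349 and 0.387). ATP2B2, a neuronal form, was at 0 in 5 libraries and at 0.06 TPM in the other. ATP2C1, the calcium and manganese pump of the Golgi, averaged 105.9 ± 8.43 and 95.1 ± 10.2 TPM (log2 fold change -0.16, adjusted p = 0.181). It passed with median-of-ratios scaling (-0.22, adjusted p = 0.028) and with quantile normalization (-0.27, adjusted p = 0.0147). Leaving out siAHCYL1 replicate 1 brought ATP2B1 (-0.25, adjusted p = 0.0496) and ATP2C1 (-0.24, adjusted p = 0.0348) past the threshold. That library was the highest of its group in 31 of the 44 genes, and in 58.0% of all genes tested.

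In store-operated entry, STIM1 and ORAI3 rose and STIM2 fell. STIM1 (chr11:3854527-4093210, plus strand), the main sensor of ER calcium, was at 22.59, 24.56 and 23.53 TPM in siNC and at 33.15, 28.78 and 33.73 TPM in siAHCYL1. The siAHCYL1 libraries were all higher (log2 fold change 0.42, SE 0.0894, limma adjusted p = 0.00373). STIM2 (chr4:26857678-27025381, plus strand), which responds to smaller losses of ER calcium, was at 8.65, 8.82 and 6.23 TPM in siNC and at 5.28, 4.16 and 5.35 TPM in siAHCYL1. All siAHCYL1 values were lower, by a narrow gap to siNC replicate 3 (log2 fold change -0.58, SE 0.158, limma adjusted p = 0.0127), and without siNC replicate 2 the call was lost (-0.50, adjusted p = 0.055). STIM1 made up 75% ± 3.59 of STIM transcripts in siNC and 86.6% ± 0.627 in siAHCYL1.

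ORAI3 (chr16:30949066-30956461, plus strand), a pore subunit of store-operated and arachidonate-regulated channels, was at 11.65, 19.12 and 14.45 TPM in siNC and at 30.05, 35.15 and 30.44 TPM in siAHCYL1. The controls varied more than the siAHCYL1 libraries, yet the groups lay far apart (log2 fold change 1.06, SE 0.156, limma adjusted p = 0.000462). ORAI1, the principal pore subunit, averaged 41.6 ± 1.5 TPM in siNC and 44.1 ± 2.08 TPM in siAHCYL1 and did not pass (adjusted p = 0.379).

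ORAI2 was at 20.85, 23.04 and 20.66 TPM in siNC and at 17.74, 19.22 and 17.68 TPM in siAHCYL1. The groups did not overlap, but the gene missed the threshold (log2 fold change -0.23, adjusted p = 0.0566), and it passed with median-of-ratios scaling (-0.29, adjusted p = 0.0173). The share of ORAI3 among ORAI transcripts went from 19.1% ± 3.35 to 33.8% ± 1.13. In siNC ORAI1 was first and ORAI3 last, with every ORAI3 value below every ORAI2 value, and in siAHCYL1 ORAI3 stood above ORAI2 in all 3 libraries.

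Of 3 ER membrane proteins that limit store filling or entry, 1 rose. TMBIM6 (chr12:49707725-49764934, plus strand), also named BAX inhibitor 1, is linked to calcium leak from the ER. It was at 605.01, 558.97 and 542.39 TPM in siNC and at 708.28, 645.11 and 640.06 TPM in siAHCYL1. All siAHCYL1 values were higher, by a small margin (log2 fold change 0.22, SE 0.0663, limma adjusted p = 0.0185). Without siNC replicate 2 or siNC replicate 3 the call was lost (adjusted p = 0.0718 and 0.0649), and likewise with no trend and robust moderation (0.0589). SARAF, which turns store-operated entry off, averaged 252.9 ± 17.6 and 238 ± 20.1 TPM, and TMCO1, which forms a channel when the ER is overfilled, averaged 60.1 ± 7.28 and 56.8 ± 9.08 TPM (adjusted p = 0.38 and 0.589).

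MCU (chr10:72692131-72887694, plus strand), the pore of the mitochondrial calcium uniporter, fell. It was at 31.75, 28.37 and 29.96 TPM in siNC and at 20.33, 18.57 and 18.85 TPM in siAHCYL1. The groups were well apart (log2 fold change -0.62, SE 0.0853, limma adjusted p = 0.000315). MICU2, a calcium-sensing subunit that gates the uniporter, averaged 81.2 ± 5.65 TPM in siNC and 87.8 ± 6.23 TPM in siAHCYL1 and did not pass (adjusted p = 0.266).

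**Figure D3:**
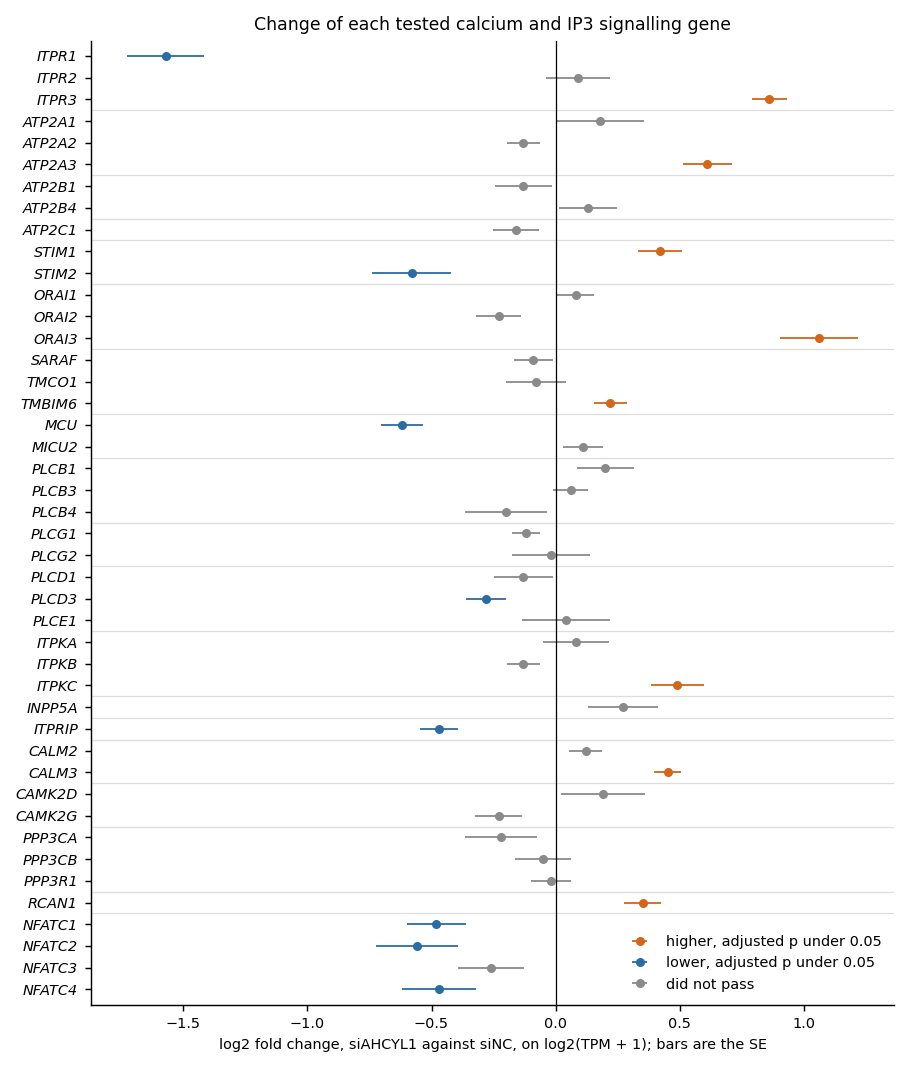
Log2 fold change of siAHCYL1 against siNC on log2(TPM + 1) for each of the 44 tested genes, with the SE as bars, orange for the 8 that rose, blue for the 8 that fell and grey for the 28 that did not pass. ITPR1 (-1.57) and ORAI3 (1.06) lie farthest from 0, and the phospholipase C genes lie close to it.

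Of the 8 phospholipase C genes tested among the 50, which make IP3, 1 fell and none rose, and PLCB2, a blood cell form, was at 0.13 TPM or less. PLCD3 (chr17:45108967-45133354, minus strand), a calcium-stimulated delta form, was at 23.79, 24.98 and 23.53 TPM in siNC and at 20.09, 19.22 and 19.65 TPM in siAHCYL1. The groups did not overlap and the change was small (log2 fold change -0.28, SE 0.0804, limma adjusted p = 0.0159). Without siNC replicate 2 or siAHCYL1 replicate 2 it did not pass (adjusted p = 0.0687 and 0.0651). Its exons overlap those of ACBD4 and NMT1 on the other strand, which both rose (log2 fold change 0.78 and 0.47).

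PLCG1, the form activated by receptor tyrosine kinases, had the highest level of the phospholipases C, at 184.65, 187.6 and 191.57 TPM in siNC and 178.92, 169.63 and 169.66 TPM in siAHCYL1. The groups did not overlap and the gene did not pass (log2 fold change -0.12, adjusted p = 0.102), although it did with median-of-ratios scaling (-0.19, adjusted p = 0.0153). PLCG2, the form of blood cells, averaged 3.86 and 3.81 TPM. The forms driven by Gq proteins, PLCB1, PLCB3 and PLCB4, averaged 12.3 ± 0.708, 36.9 ± 0.952 and 5.69 ± 0.631 TPM in siNC. In siAHCYL1 they averaged 14.4 ± 1.84, 38.4 ± 0.900 and 4.88 ± 1.13 TPM (adjusted p = 0.16, 0.527 and 0.335). PLCD1 averaged 7.36 and 6.61 TPM, and PLCE1, an effector of RAS, averaged 2.59 ± 0.590 and 2.68 ± 0.485 TPM (adjusted p = 0.376 and 0.862).

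Of the genes that act on IP3 or its receptor afterwards, ITPKC rose and ITPRIP fell. ITPKC (chr19:40717103-40740860, plus strand), an IP3 3-kinase, was at 9.29, 9 and 7.87 TPM in siNC and at 12.83, 12.85 and 12.3 TPM in siAHCYL1. The siAHCYL1 libraries were all higher (log2 fold change 0.49, SE 0.105, limma adjusted p = 0.00361). C19orf54, which shares exon positions with it on the other strand, rose too, from 9.35 to 18.18 TPM (log2 fold change 0.90, adjusted p = 0.000533), and without strand the reads of the pair cannot be told apart.

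ITPKB, the most abundant IP3 kinase, was at 60.84, 65.28 and 63.08 TPM in siNC and at 57.6, 56.98 and 57.77 TPM in siAHCYL1. It lay slightly lower without overlap and did not pass (log2 fold change -0.13, adjusted p = 0.117), but passed with median-of-ratios scaling (-0.20, adjusted p = 0.0274). ITPKA averaged 15.3 ± 2.21 and 16.2 ± 2.30 TPM, and INPP5A, the phosphatase that ends the IP3 signal, averaged 12.5 ± 2.47 and 15.2 ± 0.806 TPM (adjusted p = 0.646 and 0.13).

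ITPRIP (chr10:104309698-104338448, minus strand), the IP3 receptor-interacting protein DANGER, which modulates the receptor, was at 40.18, 39.36 and 36.13 TPM in siNC and at 28.34, 27.06 and 26.93 TPM in siAHCYL1. The groups were clearly apart (log2 fold change -0.47, SE 0.078, limma adjusted p = 0.000864).

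CALM2 had the highest level of the 50 genes, followed by TMBIM6 and then CALM3. CALM3 (chr19:46601074-46610793, plus strand) rose, from 277.68, 276.02 and 266.41 TPM in siNC to 373.3, 367.81 and 378.36 TPM in siAHCYL1. Values within each group differed by far less than the groups did (log2 fold change 0.45, SE 0.0531, limma adjusted p = 0.000124). CALM2, whose product is the same protein, was at 847.56, 758.2 and 748.93 TPM in siNC and at 888.73, 852.04 and 815.49 TPM in siAHCYL1. The groups overlapped through replicate 1 of siNC (log2 fold change 0.12, adjusted p = 0.16), and without it CALM2 passed (0.18, adjusted p = 0.0427). Calmodulin genes have pseudogenes of similar sequence, so their single values are uncertain.

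The CaM kinase II genes did not pass. CAMK2G was at 22.91, 21.19 and 24.86 TPM in siNC and at 20.82, 18.92 and 18.63 TPM in siAHCYL1, a small gap without overlap (log2 fold change -0.23, adjusted p = 0.0683). It passed without siAHCYL1 replicate 1 (-0.28, adjusted p = 0.0403) and with median-of-ratios scaling (-0.29, adjusted p = 0.0188). CAMK2D averaged 4.74 ± 0.843 and 5.58 ± 1.14 TPM (adjusted p = 0.362), and CAMK2A, the neuronal form, was at 0.05 TPM in 1 library and at 0 in the other 5.

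The calcineurin subunit genes PPP3CA, PPP3CB and PPP3R1 did not pass, while the calcineurin regulator RCAN1 rose and 3 of the 4 NFAT genes fell. The catalytic subunit genes PPP3CA and PPP3CB averaged 12.7 ± 0.681 and 20.9 ± 1.81 TPM in siNC, and 10.9 ± 2.46 and 20.2 ± 2.64 TPM in siAHCYL1 (adjusted p = 0.23 and 0.729). PPP3CA was at 13.78 TPM in replicate 1 of siAHCYL1 and at 9.66 and 9.4 TPM in the others, and passed without that replicate (log2 fold change -0.38, adjusted p = 0.0145). PPP3R1, the regulatory subunit, averaged 114.3 ± 11.2 and 112.4 ± 4.14 TPM (adjusted p = 0.857).

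RCAN1 (chr21:34513142-34615142, minus strand) encodes a protein that binds and restrains calcineurin, and NFAT can drive its transcription. It was at 49.1, 47.83 and 43.2 TPM in siNC and at 60.91, 59.64 and 58.63 TPM in siAHCYL1. All siAHCYL1 values were higher (log2 fold change 0.35, SE 0.0738, limma adjusted p = 0.00349).

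Of the 4 calcium-regulated NFAT genes 3 fell and the other did not pass. NFATC1 (chr18:79395856-79529325, plus strand) was at 11.67, 10.47 and 10.26 TPM in siNC and at 8.32, 6.53 and 7.57 TPM in siAHCYL1 (log2 fold change -0.48, SE 0.12, limma adjusted p = 0.00831). NFATC2 (chr20:51386957-51562831, minus strand) was low, at 1.83, 2.42 and 2.37 TPM in siNC and 1.27, 1.03 and 1.19 TPM in siAHCYL1 (-0.56, adjusted p = 0.0177). NFATC4 (chr14:24365673-24379604, plus strand) was at 4.56, 4.81 and 6.27 TPM in siNC and at 3.38, 3.22 and 3.76 TPM in siAHCYL1 (-0.47, adjusted p = 0.024). In these 3 genes every siAHCYL1 value lay below every control value.

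NFATC3, the most abundant of the family, was at 21.18, 18.24 and 17.15 TPM in siNC and at 18.24, 15.86 and 13.04 TPM in siAHCYL1. Here the groups overlapped (log2 fold change -0.26, adjusted p = 0.135), and the gene passed without siAHCYL1 replicate 1 (-0.36, adjusted p = 0.0403) and with median-of-ratios scaling (-0.32, adjusted p = 0.038). The calls of the 2 lowest genes were less stable. NFATC2 was lost without siNC replicate 2 (adjusted p = 0.0593), siNC replicate 3 (0.0595) or siAHCYL1 replicate 2 (0.0642), and NFATC4 without siNC replicate 3 (0.0952) or siAHCYL1 replicate 2 (0.0775). The 4 genes summed to 39.24, 35.94 and 36.05 TPM in siNC and to 31.21, 26.64 and 25.56 TPM in siAHCYL1, without overlap (exact two-sided permutation p = 0.1, or 0.2 adjusted over 14 families). The sums of the IP3 receptors, ryanodine receptors, ORAI channels, PLC gamma, PLC delta and epsilon, and calmodulin reached the same p. Such separation was common, as 59.2% of all genes tested did not overlap.

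The 3′ UTRs of the genes were searched for GTATGCA, a 7-mer that an earlier analysis of these same data had linked to lower fold changes. The longest 3′ UTR of each gene in GENCODE release 29 (GRCh38) was read on the transcript strand. Over 11935 tested genes with such a UTR 8.75% held the 7-mer, and of these 38.5% fell and 20.3% rose. Of genes without it 20.9% fell and 31.2% rose, and their median UTR was shorter, at 1262 bases against 3305. Of the 44 calcium and IP3 genes 5 held it once each, and of these 1 fell, none rose and 4 did not pass. The sites are shown because they tell which genes carry the 7-mer and which do not. They are printed with up to 7 bases on each side and the 7-mer in capitals.
ITPR2: attgtatGTATGCAaaa
NFATC2: tgcacttGTATGCAacctgtc
ATP2B4: catcacaGTATGCAgagactt
PLCG2: gggcttaGTATGCAtgtactg
PPP3CB: attttgtGTATGCAtgttttc
NFATC2 was the 1 that fell, and ITPR2, whose match lies at the end of its UTR, did not pass. ITPR1, STIM2, MCU, PLCD3, ITPRIP, NFATC1 and NFATC4, the other 7 that fell, held no match in this window. A match is a run of letters and not a shown site, and its part in these changes was not tested. TCGGAGA, linked to higher fold changes in that earlier analysis, was searched in the same way and was held by 2.18% of the genes. Of these 46.2% rose and 16.2% fell. Of genes without it 29.9% rose and 22.6% fell, and their median UTR was shorter, at 1359 bases against 2950. NFATC1 was the 1 calcium gene with a match, and it fell.
NFATC1: ccccagcTCGGAGAggacaga

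A wider set of 257 other genes of calcium and IP3 signalling, in 10 lists, was read from the same fit. Of these 247 were in the table and 177 were tested, and 58 rose and 44 fell, or 57.6% beside the background of 51.6%. AHCYL1, the siRNA target, is counted among the tested genes and the falls. With median-of-ratios scaling 50 rose and 52 fell, and with quantile normalization 50 rose and 54 fell. The lists were written with earlier results of these data known, and gene names are those of the table. In each list the 2 largest changes in each direction are named. The share of each list that changed is given beside its counts, for reading against the background of 51.6%. Over all genes tested 30.4% rose and 21.2% fell. No test of any list was run.

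Of 20 tested partners and regulators of IP3 receptors 9 rose and 6 fell (75% changed), with a median log2 fold change of 0.25. ERLIN2 was at 26.34, 26.73 and 24.56 TPM in siNC and at 79.92, 69.04 and 69.1 TPM in siAHCYL1 (log2 fold change 1.45, SE 0.0836, limma adjusted p = 2.09e-06). ERLIN1 was at 27.03, 23.16 and 21.54 TPM in siNC and at 69.77, 61.78 and 64.03 TPM in siAHCYL1 (1.41, adjusted p = 5.28e-06). Their products form the ER membrane complex that takes activated IP3 receptors to degradation, and both were well above the controls in every library.

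RNF170, the ubiquitin ligase of that complex, was picked out after its values were seen. It was at 2.31, 2.35 and 2.31 TPM in siNC and at 3.56, 4.21 and 5.73 TPM in siAHCYL1 and rose as well (0.71, adjusted p = 0.00664). BCL2, which binds IP3 receptors and limits calcium release, fell from 9.59 ± 0.191 to 4.31 ± 0.353 TPM (-1.0, adjusted p = 0.0001), and AHCYL1 itself is in this list.

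Of 16 tested genes of mitochondrial calcium handling 5 rose and 3 fell (50.0% changed). SMDT1, the uniporter subunit EMRE that the MCU pore needs to conduct, was at 11.38, 11.97 and 13.35 TPM in siNC and at 26.94, 29.15 and 25.41 TPM in siAHCYL1. It rose (1.09, adjusted p = 2.47e-05), in contrast to MCU. AFG3L2, a protease that removes unassembled EMRE, rose (67.6 ± 4.84 to 111.3 ± 1.77 TPM, 0.71). VDAC1, a channel of the outer membrane, fell (-0.69), and MICU3, a gatekeeper of the uniporter, fell (6.54 ± 0.527 to 4.11 ± 0.130 TPM, -0.56, adjusted p = 0.00415).

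Of 12 tested calcium exchangers, pump partners and ER leak genes 6 rose and 4 fell (83.3% changed). SLC24A3, a potassium-dependent sodium-calcium exchanger, rose from 29.6 ± 2.53 to 98.8 ± 2.32 TPM (1.71, adjusted p = 7.73e-07). SLC24A1, of the same family, rose from 1.26 ± 0.0987 to 5.70 ± 1.22 TPM (1.55). PSEN2, presenilin 2, fell (45.9 ± 2.65 to 30.4 ± 3.73 TPM, -0.59), and SLC8A1, the sodium-calcium exchanger NCX1, fell (7.91 ± 0.452 to 5.44 ± 0.601 TPM, -0.47).

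Of 11 tested genes of store-operated entry and TRPC channels 4 rose and 2 fell (54.5% changed). CRACR2B, a regulator of ORAI channels, rose from 1.57 ± 0.423 to 8.0 ± 0.673 TPM (1.82, adjusted p = 2.11e-05), and ESYT1, a tether between ER and plasma membrane, rose (0.49). The septin gene SEPT4 (-0.95) and TMEM110, also named STIMATE, a partner of STIM1 (-0.40), fell. Of 22 tested voltage-gated and other plasma membrane channel genes 8 rose and 8 fell (72.7% changed). CACNA2D4 (17.9 ± 1.01 to 42.2 ± 2.36 TPM, 1.19) and CACNA1C, the pore of an L-type channel (1.11), rose, and CACNB4 (-0.88) and the ATP-gated channel P2RX7 (-0.81) fell.

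Of 10 tested genes for Gq proteins, RGS proteins and other phospholipases C 4 rose and 3 fell (70.0% changed). PLCL2, a phospholipase C-like protein without catalytic activity, rose (19.4 ± 2.01 to 42.1 ± 4.54 TPM, 1.08), as did PLCXD1 (0.85). PLCH1 fell (-0.92), and PLCD4 fell (-0.52, adjusted p = 0.0353) but lost its call with each library left out in turn (adjusted p from 0.0574 to 0.122). Of 28 tested genes that supply phosphoinositides and diacylglycerol 7 rose and 9 fell (57.1% changed). DGKI, a diacylglycerol kinase (1.34), and PITPNA, a phosphatidylinositol transfer protein (0.49), rose, and DAGLA, a diacylglycerol lipase (5.06 ± 0.504 to 1.09 ± 0.283 TPM, -1.54), and PITPNC1 (-0.84) fell.

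Of 20 tested genes of inositol phosphate turnover 8 rose and 1 fell (45.0% changed). PPIP5K1, which makes inositol pyrophosphates, rose (4.69 ± 0.717 to 10.5 ± 0.266 TPM, 1.02), and IMPA2, an inositol monophosphatase, rose (85.9 ± 4.55 to 151.8 ± 10.7 TPM, 0.81). MINPP1 fell slightly (-0.22, adjusted p = 0.0418), and without siNC replicate 2 its adjusted p was 0.164. It also failed without siNC replicate 1 (0.0934) and without siAHCYL1 replicate 1 (0.074), 2 (0.0863) or 3 (0.095).

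Of 21 tested genes for calmodulin, CaM kinases and calmodulin-binding proteins 2 rose and 5 fell (33.3% changed). CAMK1D rose from 18.4 ± 1.09 to 47.1 ± 2.47 TPM (1.31, adjusted p = 3.43e-06) and PDE1C, a calmodulin-dependent phosphodiesterase, rose (0.69), while NRGN, the calmodulin-binding neurogranin (-0.90), and MYLK, myosin light chain kinase (-0.81), fell. Of 19 tested regulators of calcineurin and NFAT 5 rose and 4 fell (47.4% changed). RCAN2, a paralog of RCAN1, was at 13.4, 15.82 and 12.55 TPM in siNC and at 5.1, 3.82 and 4.77 TPM in siAHCYL1 and fell (-1.42, adjusted p = 3.61e-05), opposite to RCAN1. CRTC1, a CREB coactivator that calcineurin activates (0.90), and PPP3CC, the remaining catalytic subunit of calcineurin (36.1 ± 1.92 to 62.2 ± 4.97 TPM, 0.77), rose, and HOMER2, a scaffold (-0.81), fell.

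**Figure D4:**
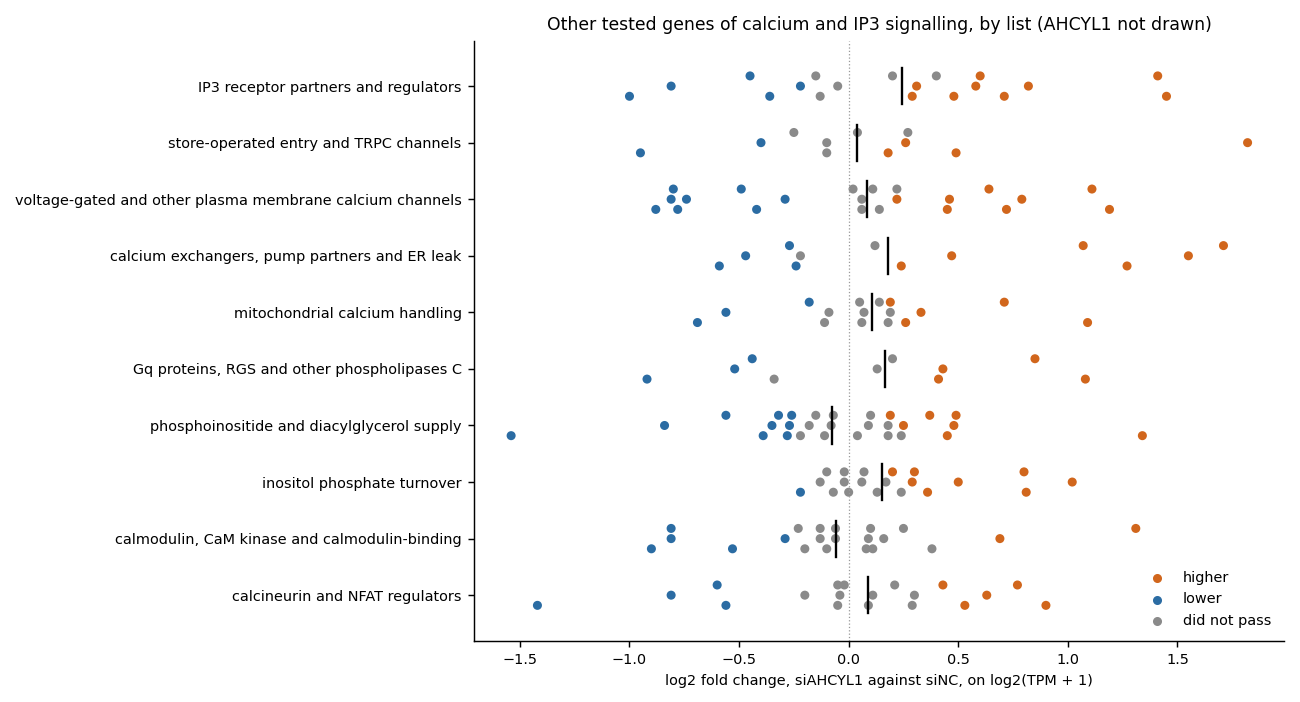
Log2 fold change of siAHCYL1 against siNC on log2(TPM + 1) for each tested gene of the 10 wider lists, 1 point per gene, orange for rises, blue for falls and grey for genes that did not pass, with a black bar at each list's median. ERLIN1 and ERLIN2 are the 2 rightmost points of the top row, and AHCYL1 (-3.44) is counted in that row's median but not drawn.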

How the data were processed

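RNA-seq of 6 HMCB libraries was analysed, with groups and replicate numbers from the sample titles. Per the labels' protocols, the libraries were non-directional. Of the tested genes 9 share exon positions with a tested gene on the other strand, and reads there cannot be assigned by strand. These are ITPR3, ATP2A1, ATP2C1, ORAI2, TMCO1, PLCG1, PLCD3, ITPKC and PPP3CB. The authors deposited 1 table of TPM, made with STAR and RSEM on GRCh38 per the submitters' processing notes; the sources used here give no versions or annotation. Each library's TPM sums to the same total, so depth is unknown and no counting interval was computed. The replicates are called biological without naming separate cultures, so p-values reflect only how far these samples differ, possibly for technical reasons.

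The 50 genes, the wider lists and the tests were chosen with earlier results of these data known. Genes reaching 1 TPM in 3 or more libraries were tested with limma 3.58.1 (R 4.3.3) on log2(TPM + 1), with an intensity trend, two-sided, Benjamini-Hochberg adjusted over 13266 genes. Fold changes on this scale understate the change of low genes. Family sums were compared with an exact permutation test (scipy 1.17.1). Named are all 50 genes, AHCYL1 and the 2 largest changes in each direction per wider list, plus RNF170, picked after its values were seen. Only the limma fit was tested on simulated data, in which far fewer genes changed than were called here. Alternatives were 2 scalings, 0.1 as pseudocount, a 5 TPM filter or none, a replicate block, robust moderation without trend and libraries left out. Positions and UTRs are from GENCODE 29. Some genes of the lists are not reported here.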

Additional observations from a re-analysis of the deposited data

How the results depend on the processing

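TPM keep no depth, so its limits were not computed. Across the 14 alternatives the rises among the 50 genes numbered 7 to 9 (8 as reported). The falls (8 as reported) became 15 with median-of-ratios scaling and with quantile normalization and 14 with the replicate block, and ranged from 5 to 14 with libraries left out. Of the 16 genes that changed, 11 stayed past the threshold under every alternative in which they were tested. The deviations of libraries with the same number were correlated at 0.233, 0.001 and 0.154. Libraries with different numbers were not compared, so these values do not settle whether the replicate numbers pair the samples. Replicate 1 was most often the highest library in both groups (44.9% of all genes tested in siNC, 58.0% in siAHCYL1). The main fit left the replicate numbers out, and the replicate block used them. The block moved the changed genes of the whole table from 6844 to 7919. Directions were compared for the 44 tested genes, AHCYL1 and the largest changes named per wider list, not for the whole table. Of these, no gene past the threshold changed direction. Genes near 0 did, past the threshold in neither fit: with quantile normalization ITPR2 (-0.01), ORAI1 (-0.02), PLCB3 (-0.04), PLCE1 (-0.01) and ITPKA (-0.03), and with median-of-ratios scaling PLCB3 and PLCE1 (both -0.01). With 1 library left out, ITPR2 ranged from -0.06 to 0.17, TMCO1 from -0.21 to 0.01, PLCG2 from -0.14 to 0.08, PLCE1 from -0.06 to 0.17, ITPKA from -0.03 to 0.18, PPP3CB from -0.15 to 0.02 and PPP3R1 from -0.1 to 0.03. Without replicate 1 of both groups, ITPR2 was at -0.06, ATP2B4 at -0.03, PLCE1 at -0.09 and PPP3R1 at 0.00. The summed PMCA pumps (0.00) went to -0.07 with median-of-ratios scaling and to between -0.13 and 0.07 with 1 library left out, the IP3 kinases to between -0.04 and 0.01 and calcineurin to between -0.12 and 0.00. For these shifts, beyond fewer samples where libraries were left out, the cause was not tested.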
